A study of Mus musculus with 17 samples.

Results

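The treatment effect of anti CTLA-4 on AB12 tumors at d14 was compared with its effect at d10, gene by gene, as the difference of 2 differences: treated minus untreated tumors at d14, minus treated minus untreated tumors at d10. This quantity, on the log2 scale, is called the interaction here. A positive value says that treated tumors stood higher against untreated tumors at d14 than they did at d10. The comparison used every replicate of the 4 groups it needs, 14 of the 17 RNA-Seq libraries of the series, and protein coding genes were taken from the annotation. Of 21951 protein coding genes in the count table, 14628 passed the filter on low counts and were tested, within a fit of 18574 genes of all types.

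AB12 is a mouse mesothelioma cell line that grows in the peritoneum of BALB/c mice with an intact immune system. All mice of the study were 8-week-old females and received 100000 AB12 cells into the peritoneum, so every group here, controls included, carries AB12 tumors. The untreated groups had 5 tumors at d10 and 3 at d14. The treated groups had 3 tumors at d10 and 3 at d14 from mice given 200 µg of the anti-CTLA4 antibody clone 9D9 into the peritoneum. In the labels a full course is 4 such injections at 2 a week, while the text of the study names d6 and d10 as the injection days of the treated d14 tumors; the injection days of the treated d10 tumors are not given in the sources used here. Tumors of different days came from different mice, so the interaction compares groups of tumors and follows no single tumor. Bulk RNA holds tumor cells, immune cells and stroma together, and fewer cells of a type cannot be told apart from less RNA per cell.

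CTLA-4 is an inhibitory receptor of T cells that competes with CD28 for the B7 ligands on antigen presenting cells, and regulatory T cells carry much of it. Blocking it releases costimulation of T cells, and some antibodies against it also deplete regulatory T cells in tumors. T cells that meet antigen signal through CD3 and its kinases, kill through perforin and granzymes, and release interferon gamma, to which macrophages, tumor cells and stroma respond.

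The libraries held 51159050 to 96759833 counts. Values are given as CPM, counts scaled to a common library total, after TMM scaling, and replicate pairs of a group differed by far more than sampling noise (chi-square per gene 20.4 to 295.4 over 19 pairs). Of the genes that mark mesothelioma cells, Msln, Krt8, Krt18 and Krt19 were at 229 CPM or more in every library, Wt1 and Upk3b were present at lower levels, and Pdpn was listed at 0 or 1 counts in every library. Ctla4 itself was listed at 0 to 2 counts in every library and was not tested. Uqcrc1 and Atp5a1, which nearly every cell uses, were listed at 0 to 29 counts, so a value near 0 in this table may not mean absence of the transcript. Some libraries stood apart. Treated d14 replicates 1 and 3 held 6515 and 2109 CPM of pancreas acinar genes in sum, where replicate 2 held 6.45 and the other 11 libraries held 1.71 to 3.12. Untreated d10 replicate 4 held 303 CPM of B cell genes against 65.4 to 100.3 in the other untreated d10 libraries. Libraries were run on 2 sequencing platforms, and which library ran on which is not given in the sources used here. Untreated d10 replicates 1 to 3 held 3964 to 12332 counts of the microRNA gene Mir6236 against 141 and 176 in replicates 4 and 5, 205 to 1244 in the treated d10 libraries and 5 to 24 in the d14 libraries.

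The treatment effect differed between the days in 1765 protein coding genes, 12.1% of those tested, past an adjusted p of 0.05 and a log2 difference of 1 in size (edgeR quasi-likelihood test, Benjamini-Hochberg adjustment). Of these, 1588 genes had a higher effect at d14 (10.9% of genes tested) and 177 a lower one (1.21%). The median interaction over all tested genes was -0.02. At d14 alone 1365 genes were called (9.33%), and the treated tumors were higher in 1235 genes (8.44%) and lower in 130 (0.889%). At d10 alone 12 genes were called (0.082%), and treated tumors were higher in 2 (0.0137%) and lower in 10 (0.0684%), with 2635 genes at an unadjusted p under 0.05 at d10 and 183 called at d10 by DESeq2. Without untreated d14 replicate 2, 936 genes were called higher and 137 lower in the interaction and 654 in either direction at d14. Without treated d14 replicate 1 the interaction had 1058 genes called higher and 96 lower, and without treated d14 replicate 2 it had 1021 and 110. Another 1076 genes passed the adjusted p with a smaller difference. Esyt2 lay just inside the size limit at -1.00107 and Frs3 just outside it at 0.999973.

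Most of the 1588 genes with a higher effect at d14 combined opposite signs: in 1496 the treated tumors were above untreated tumors at d14 and below them at d10, in 89 the effect was positive on both days, and in 3 it was negative on both. Over all 14628 tested genes, 8000 (54.7%) had effects of opposite sign on the 2 days. The median effect over the 1588 genes was 1.16 at d14 and -0.45 at d10, and the d14 term was the larger in 1386 of them. Read along time, 1478 of the 1588 had a negative change from d10 to d14 in untreated tumors and a positive one in treated tumors, with medians of -0.78 and 0.82. Only 989 of the 1588 were themselves called higher at d14 and 10 called lower at d10, so for many genes neither day alone passed the test. All 3 treated d14 libraries lay above all untreated d14 libraries in 1481 of the 1588 (26.8% of all tested genes), and all treated d10 libraries lay below all untreated d10 libraries in 404 (5.5% of all tested genes). The interaction is built from the same libraries as the 2 daily effects, so these counts describe the calls and are no further test of them. Of the 177 genes with a lower effect at d14, 160 were positive at d10 and negative at d14, with medians of 0.50 and -0.93.

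**Figure D1:**
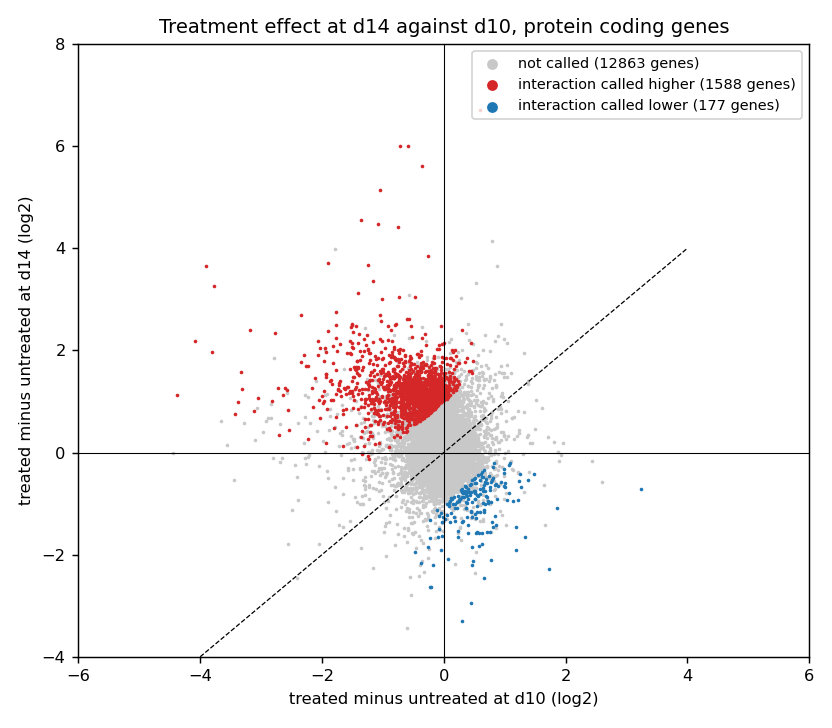
Treatment effect at d10 (x axis, log2 treated over untreated) against that at d14 (y axis, log2) for 14628 protein coding genes; coloured points are the 1588 genes with a higher and the 177 with a lower effect at d14, and 12 genes lie outside the axes. Genes with a higher effect at d14 lie mostly in the upper left, where the d10 effect is negative and the d14 effect positive.

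Genes of T cell receptor signaling had a higher treatment effect at d14 in 18 of 24 members and a lower one in none, against 10.9% of all tested genes called higher. Their median interaction was 1.36, made of a median d14 effect of 1.15 and a median d10 effect of -0.22. From d10 to d14 the median change was -1.01 in untreated tumors and 0.30 in treated tumors. With untreated d10 replicates 1 to 3 only the count was 15, and with replicates 4 and 5 only it was 20. The counts of the lists below are to be read beside the same 10.9% of all tested genes called higher and 1.21% called lower.

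Cd4 encodes the coreceptor of helper and regulatory T cells and lies at chromosome 6, 124864692 to 124888221. It was at 7.25, 8.2, 6.38, 10.2 and 5.79 CPM in the untreated d10 libraries and at 5.19, 4.62 and 4.64 in the treated ones. By d14 the level was 3.22, 2.09 and 4.57 CPM in untreated and 9.28, 10.3 and 8.12 CPM in treated libraries. Treated libraries thus lay wholly below untreated ones at d10 and wholly above them at d14, and the interaction was 2.14 (SE 0.34, adjusted p = 0.00343). The effect of treatment was -0.65 at d10 and 1.49 at d14, of which only the latter was called. Cd8b1, the beta chain of the coreceptor of cytotoxic T cells (chromosome 6, 71322788 to 71337494), was at 41.7, 44.6, 36.5, 56.8 and 46.9 CPM in untreated and 38.5, 33.8 and 33.6 CPM in treated d10 libraries, which overlapped. On d14 the values were 18.2, 10.8 and 22.1 CPM in untreated and 39, 36.8 and 31.9 CPM in treated libraries, which did not overlap. Its interaction was 1.44 (SE 0.28, adjusted p = 0.00574), with a difference between the d14 and d10 levels of 0.02 (SE 0.21) in treated tumors. Over the same days Cd8b1 fell by 1.41 on the log2 scale in untreated tumors.

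Not every chain of the CD3 complex was called. Cd3e, a signaling chain of CD3 (chromosome 9, 44998740 to 45009627), held 56.5 to 57.9 CPM in the treated d14 libraries against 21.4 to 35.9 in the untreated ones and had an interaction of 1.18 (SE 0.19, adjusted p = 0.00355). Cd3d stood at 0.93 (SE 0.31, adjusted p = 0.054) and Cd3g at 0.98 (SE 0.20, adjusted p = 0.00637), so neither met both limits of the test. Of the kinases and adaptors that carry the signal, Lck was at 1.36 (SE 0.26, adjusted p = 0.00533), Zap70 at 1.11 (SE 0.33, adjusted p = 0.034) and Lat at 1.74 (SE 0.28, adjusted p = 0.00328). The adhesion receptors Cd2 and Cd6 were at 1.99 (SE 0.30, adjusted p = 0.00287) and 1.56 (SE 0.30, adjusted p = 0.00505). Cd6 (chromosome 19, 10789341 to 10830058) was at 7.84, 4.84 and 8.14 CPM in untreated and 17.8, 22 and 16.3 CPM in treated d14 libraries, with 9.78 to 15.9 CPM over all d10 libraries of both treatments. Icos, a costimulator of activated T cells, had an interaction of 1.29 (SE 0.31, adjusted p = 0.0125), and Cd28, the receptor that competes with CTLA-4 for its ligands, had 0.96 (SE 0.29, adjusted p = 0.0365), under the size limit. With single libraries left out, the call was lost for Cd3e in 1 of 14 cases and Zap70 in 7 (Zap70 at most adjusted p = 0.0841, log2 1.05, without treated d14 replicate 2).

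Cytotoxic effector genes were called higher in 6 of 13 members, with a median interaction of 0.98, and 8 and 5 were called with untreated d10 replicates 1 to 3 only and 4 and 5 only. Gzmb, the granzyme that starts apoptosis in target cells (chromosome 14, 56258838 to 56262260), was at 286, 371, 395, 235 and 276 CPM in untreated and 361, 277 and 305 CPM in treated d10 libraries. Values at d14 were 103, 68.4 and 77.5 CPM in untreated and 283, 219 and 213 CPM in treated libraries. The d10 groups overlapped and the d14 groups did not, and the interaction was 1.51 (SE 0.27, adjusted p = 0.0043). It kept its call under all 25 alternatives tried, at 1.24 to 1.71. Gzma and Gzmk, granzymes of other specificity, were at 1.4 (SE 0.39, adjusted p = 0.0249) and 1.41 (SE 0.35, adjusted p = 0.0152). Gzma fell in treated tumors too, by 1.59 on the log2 scale from d10 to d14 against 2.98 in untreated tumors. Leaving out each library in turn removed the call of Gzma in 3 of 14 cases (at most adjusted p = 0.0722, log2 1.24, without treated d14 replicate 1).

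Prf1, which encodes the pore-forming perforin, was at 109, 70.3 and 98.4 CPM in untreated and 219, 227 and 190 CPM in treated d14 libraries, with an effect of 1.19 (SE 0.19, adjusted p = 0.00167) at d14. Its interaction was 0.82 (SE 0.25, adjusted p = 0.0357), under the size limit. Ifng, the interferon of activated T and NK cells, had an interaction of 1.35 (SE 0.44, adjusted p = 0.0464) and lost its call in 13 of 25 alternatives. It was at 20.6, 24.8, 18.6, 10.6 and 9.52 CPM in untreated d10 libraries, where replicates 1 to 3 lay above replicates 4 and 5. Of the 6 clustered granzymes none was called, with a median interaction of 0.46 and a positive median effect on both days (0.84 at d10 and 1.37 at d14). Uniquely mapped reads may undercount these near-identical copies, so each value is uncertain.

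**Figure D2:**
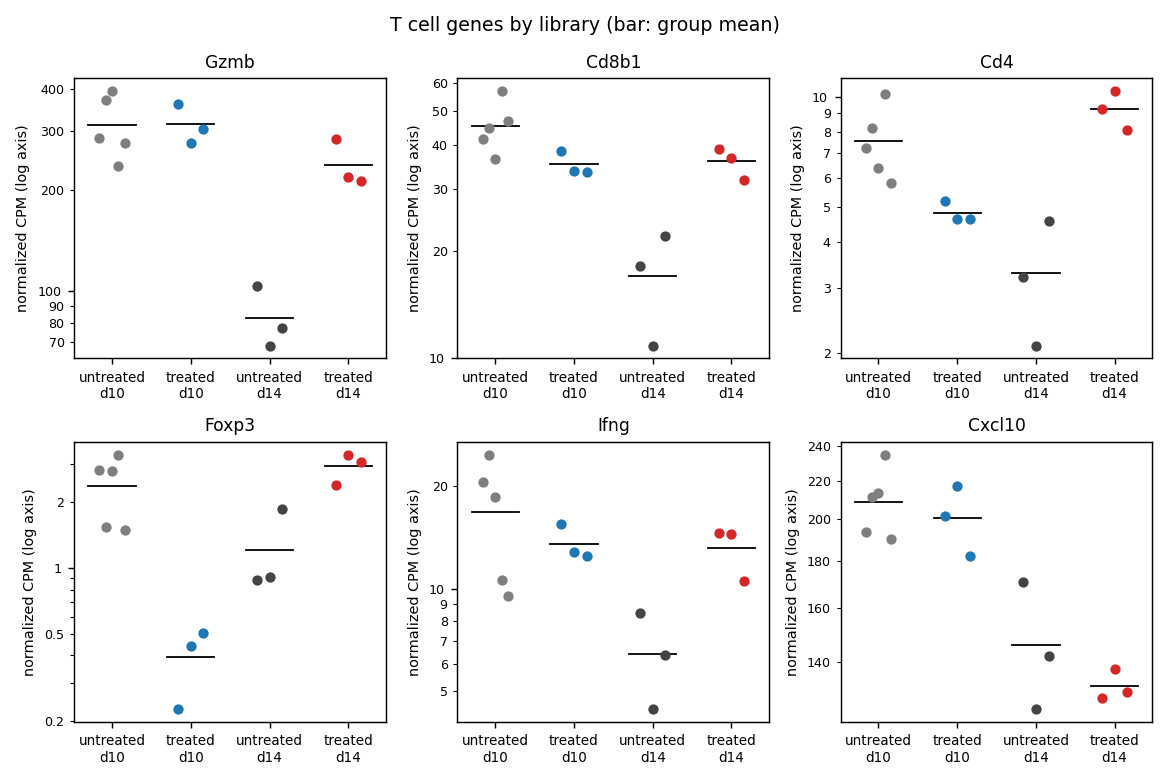
CPM of 6 T cell and interferon genes in each library by group (log y axis; x axis, untreated and treated tumors at d10 and d14; points are libraries, bars are group means). Gzmb, Cd8b1, Cd4 and Foxp3 are low in untreated d14 tumors next to treated d14 tumors, whereas Cxcl10 lies between 124 and 235 CPM in every library.

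Regulatory T cell genes included a member whose effect was called on both days in opposite directions. Foxp3, the transcription factor that defines regulatory T cells (chromosome X, 7573644 to 7595245), was at 2.81, 1.55, 2.78, 3.29 and 1.49 CPM in untreated and 0.228, 0.443 and 0.505 CPM in treated d10 libraries. At d14 it was at 0.884, 0.909 and 1.86 CPM in untreated and 2.41, 3.31 and 3.07 CPM in treated libraries. Every treated library was below every untreated one at d10 and above every untreated one at d14. The effect was -2.61 (SE 0.39, adjusted p = 0.024) at d10 and 1.26 (SE 0.38, adjusted p = 0.0288) at d14, and the interaction was 3.87 (SE 0.54, adjusted p = 0.00243), with 3.56 to 4.30 over the 25 alternatives. Of the 10 genes of the list 4 were called higher. The others were Tnfrsf18 and Tnfrsf4, costimulators also found on activated T cells (1.31 and 1.28), and Gpr83 (2.49), which was under 0.31 CPM in every library. Il2ra, the high-affinity interleukin 2 receptor chain, stood higher in treated than in untreated tumors at d14 by 1.49 (SE 0.18, adjusted p = 0.0011) with a d10 effect of 0.53 (SE 0.16, adjusted p = 0.135), and its interaction was 0.96 (SE 0.24, adjusted p = 0.0161). Ikzf2, a transcription factor of regulatory T cells, was at 0.65 (SE 0.27, adjusted p = 0.107). The d10 effect of Ikzf2 was 0.19 (SE 0.18, adjusted p = 0.591). A single omitted library cost the call of Gpr83 in 7 of 14 cases (at most adjusted p = 0.0744, log2 2.33, without treated d14 replicate 2).

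Inhibitory receptors were called higher in 2 of 9 tested members, Btla and Entpd1, against 10.9% of all tested genes. Pdcd1 (PD-1) had an interaction of 0.35 (SE 0.33, adjusted p = 0.507), Lag3 of 1.03 (SE 0.41, adjusted p = 0.0952) and Havcr2 (TIM-3) of 0.27 (SE 0.25, adjusted p = 0.495). That these missed the thresholds does not show equal effects on the days, and Lag3 was called without untreated d10 replicate 3 and without untreated d14 replicate 3. The number called was 0 to 1 when any of treated d10 replicates 1, 2 and 3, untreated d14 replicates 1 and 2 and treated d14 replicates 1 and 2 was left out. Havcr2 was at 56.1, 47.8 and 67.1 CPM in untreated and 84.8, 87.4 and 74.8 CPM in treated d14 libraries, with no overlap. Among T cell transcription factors 7 of 16 were called higher, and in the list of naive and memory genes 5 of 8. Tcf7 and Lef1, factors of naive and stem-like T cells that both lists hold, were at 1.56 (SE 0.27, adjusted p = 0.00378) and 1.69 (SE 0.35, adjusted p = 0.00723), and Tbx21, which drives type 1 effector genes, was at 1.5 (SE 0.32, adjusted p = 0.00833). The naive and memory count was 3 without treated d10 replicate 2, untreated d14 replicate 1 or 2, or treated d14 replicate 1 or 2. Tox, a factor of exhausted T cells, was at -0.63 (SE 0.33, adjusted p = 0.207). NK cell receptors were called higher in 3 of 11 tested members, against 10.9% of all tested genes. With untreated d10 replicates 1 to 3 only the NK count was 6, and with replicates 4 and 5 only it was 1. With a library fewer, the members called were 0 to 1 when any of untreated d10 replicate 3, treated d10 replicate 2, untreated d14 replicate 2 and treated d14 replicate 2 was left out and 5 without untreated d14 replicate 3.

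Genes that respond to interferon did not share the direction of the T cell genes. Of 24 genes of the interferon gamma response and CXCR3 chemokines 1 was called higher and 2 lower, with a median interaction of 0.02. The gene called higher was Cxcr3 (2.54 (SE 0.48, adjusted p = 0.00502)), the receptor on T cells for the chemokines of the list. The genes called lower were Tgtp1 and Tgtp2 (-1.62 and -1.43), interferon-induced GTPases that share near-identical sequence, so uniquely mapped reads may undercount both. Cxcl10, a chemokine that draws CXCR3-bearing T cells, was at 171, 124 and 142 CPM in untreated and 128, 138 and 129.8 CPM in treated d14 libraries and had an interaction of -0.09 (SE 0.16, adjusted p = 0.758). Cxcl9 was at 0.62 (SE 0.24, adjusted p = 0.0835). All 27 tested genes of the type I interferon response had a negative interaction, with a median of -0.59, yet none of them was called in either direction (edgeR, with 1.21% of all tested genes called lower). The number called was 1 to 2 when any of untreated d10 replicate 3, treated d10 replicate 1 and untreated d14 replicate 2 was left out. Isg15 was at -0.68 (SE 0.28, adjusted p = 0.108) and Irf7 at -0.4 (SE 0.28, adjusted p = 0.362). Of 15 genes of MHC class I presentation none was called, with a median of -0.03.

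B cell genes had the largest median interaction of the immune lists, 3.87, with 9 of 14 members called higher. The d10 term made most of it: the median effect was -2.93 at d10 and 0.93 at d14. Cd79a encodes a signaling chain of the B cell receptor and lies at chromosome 7, 24897381 to 24902197. It was at 8.94, 10.2, 3.15, 50.1 and 8.88 CPM in the untreated d10 libraries and at 0.983, 2.42 and 1.3 in the treated ones. By d14 the level was 2.62, 0.545 and 8.61 CPM in untreated and 9.97, 7.39 and 6.25 CPM in treated libraries, which overlapped. The value of 50.1 belonged to untreated d10 replicate 4, and the other untreated d10 libraries still lay above all treated d10 libraries. The interaction was 4.38 (SE 1.28, adjusted p = 0.0307), and without replicate 4 it was 3.32 (adjusted p = 0.028). Ms4a1, which encodes CD20, was at 4.17 (SE 1.28, adjusted p = 0.0377). Cd22 lost its call without replicate 4, at 1.60 (adjusted p = 0.055). Pax5, the transcription factor that sets B cell identity, was at 24.2, 20.5, 34.1, 33.5 and 27.3 CPM in untreated d10 libraries and had an interaction of -0.5 (SE 0.23, adjusted p = 0.142). With single libraries left out, the call was lost for Cd79a in 7 of 14 cases and Ms4a1 in 7 (Ms4a1 at most adjusted p = 0.0933, log2 3.90, without treated d10 replicate 1). This count was 2 to 3 when any of treated d10 replicates 1, 2 and 3, untreated d14 replicates 1 and 2 and treated d14 replicates 1 and 2 was left out. Without untreated d10 replicate 4 the B cell list had 8 called genes, and with untreated d10 replicates 1 to 3 only and 4 and 5 only it had 9 and 13. Without treated d14 replicates 1 and 3, which also held the pancreas genes, no B cell gene was called. This alternative was chosen after seeing the data and leaves 1 treated d14 library.

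Plasma cell genes were called higher in 4 of 7 members. Jchain, which joins polymeric antibodies (chromosome 5, 88519809 to 88527891), was at 83.1, 92.2, 17.9, 205 and 56.4 CPM in untreated and 27.5, 32.6 and 23.2 CPM in treated d10 libraries. On d14 the values were 51.3, 19.6 and 46.2 CPM in untreated and 273, 128 and 109 CPM in treated libraries, with no overlap. Its interaction was 3.83 (SE 0.87, adjusted p = 0.0104). Derl3, a factor of protein export from the endoplasmic reticulum, was at 4.0 (SE 0.91, adjusted p = 0.0103), and Sdc1, a surface marker that mesothelioma cells also carry, was at -0.09 (SE 0.16, adjusted p = 0.733). With a library fewer, the members called were 2 when any library but untreated d10 replicates 1, 3, 4 and 5, untreated d14 replicate 1 and treated d14 replicate 3 was left out.

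**Figure D3:**
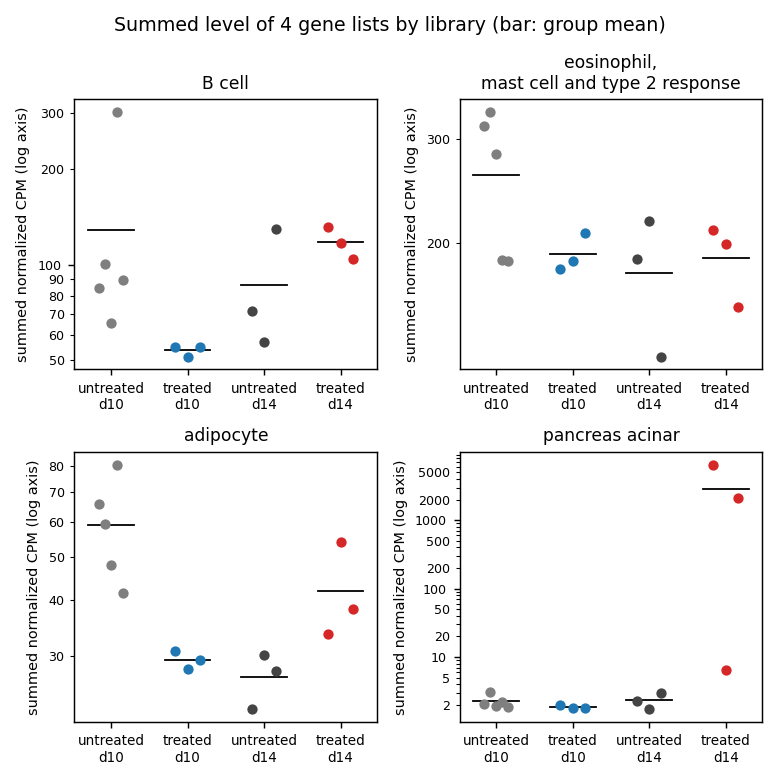
Summed CPM of 4 gene lists in each library (y axis, log scale; x axis, untreated and treated tumors at d10 and d14; points are libraries, bars are group means). Untreated d10 replicate 4 stands out at 303 CPM for B cell genes, and treated d14 replicates 1 and 3 stand out at 6515 and 2109 CPM for pancreas acinar genes. For eosinophil, mast cell and type 2 genes treated and untreated libraries overlap on both days.

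MHC class II genes, through which professional antigen presenting cells show peptides to CD4 T cells, were called higher in 5 of 12 members, with a median interaction of 0.82. Promoters of this family carry a conserved module that includes the Y box, whose core letters CTGATTGG or their complement CCAATCAG were searched on both strands in the 250 bases before each gene start of RefSeq (build GRCm38.p6). The letters were found in 4 of the 10 windows of the list, which belong to 9 genes, and in 3.83% of all 32851 windows. The called members Ctss and H2-Ob had a window without a match, and the called H2-Ab1 had no window. The octamer ATGCAAAT was searched in the same way for 2 other lists. It was found in 0 of 10 B cell genes and 0 of 6 plasma cell genes with a window, and in 1.6% of all windows. The windows of H2-Aa and H2-Oa, both called, are printed with those of H2-Eb1 and H2-Eb2, not called, since they let the promoters of members with different calls be compared. The capitals mark the match, and each sequence runs 5′ to 3′ on the strand of the gene.
H2-Aa, chr17:34287824-34288073, minus strand, match 51 bases before the start: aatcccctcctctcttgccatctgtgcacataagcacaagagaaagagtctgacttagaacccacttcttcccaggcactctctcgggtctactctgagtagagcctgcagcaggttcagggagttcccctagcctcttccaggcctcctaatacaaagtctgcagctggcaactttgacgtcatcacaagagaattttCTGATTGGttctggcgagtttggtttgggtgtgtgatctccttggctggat
H2-Oa, chr17:34092129-34092378, plus strand, match 46 bases before the start: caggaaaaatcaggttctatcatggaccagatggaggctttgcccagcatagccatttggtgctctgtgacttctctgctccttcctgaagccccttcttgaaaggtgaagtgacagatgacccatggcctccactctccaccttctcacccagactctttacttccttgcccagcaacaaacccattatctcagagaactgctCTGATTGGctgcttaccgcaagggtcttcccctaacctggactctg
H2-Eb1, chr17:34305617-34305866, plus strand, match 62 bases before the start: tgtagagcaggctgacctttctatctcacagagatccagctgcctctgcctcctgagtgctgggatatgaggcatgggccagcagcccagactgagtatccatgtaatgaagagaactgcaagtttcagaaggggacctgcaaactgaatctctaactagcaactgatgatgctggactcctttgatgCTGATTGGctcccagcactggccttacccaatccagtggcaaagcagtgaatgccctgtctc
H2-Eb2, chr17:34325425-34325674, plus strand, match 103 bases before the start: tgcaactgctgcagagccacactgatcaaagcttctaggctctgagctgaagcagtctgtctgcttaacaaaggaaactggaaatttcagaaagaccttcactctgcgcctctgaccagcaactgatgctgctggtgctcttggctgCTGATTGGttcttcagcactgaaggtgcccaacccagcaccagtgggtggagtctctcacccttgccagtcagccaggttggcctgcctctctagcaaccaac
The same letters thus stood before members with a called and with an uncalled interaction.

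H2-Ab1, a class II beta chain (chromosome 17, 34257689 to 34269419), was at 1375, 1580, 1168, 1187 and 826 CPM in untreated and 683, 852 and 746 CPM in treated d10 libraries. Values at d14 were 425, 258 and 598 CPM in untreated and 981, 1003 and 818 CPM in treated libraries, so that only the d14 groups were apart. The interaction was 1.82 (SE 0.35, adjusted p = 0.00532). H2-Aa and H2-Oa, whose windows are printed above, were at 1.1 (SE 0.34, adjusted p = 0.038) and 1.85 (SE 0.50, adjusted p = 0.0223), and H2-Eb1 and H2-Eb2 at 0.92 (SE 0.38, adjusted p = 0.11) and -0.72 (SE 0.63, adjusted p = 0.464). Ctss, the protease that clears the invariant chain from class II molecules, had 1.92 (SE 0.43, adjusted p = 0.00945). Ciita, the coactivator that turns class II genes on, had 0.1 (SE 0.26, adjusted p = 0.838) and lay between 86.9 and 178 CPM. Leaving out each library in turn removed the call of H2-Aa in 10 of 14 cases and H2-Oa in 4 (H2-Aa at most adjusted p = 0.096, log2 0.84, without untreated d14 replicate 2). The number called was 2 to 3 when any library but untreated d10 replicates 1, 3, 4 and 5, untreated d14 replicate 3 and treated d14 replicate 3 was left out.

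Dendritic cell genes were called higher in 6 of 14 members. Cd209a was at 3.96, Siglech, a marker of plasmacytoid dendritic cells, at 2.32 and Ccl22, a chemokine for regulatory T cells, at 1.93. For markers of the cross-presenting subset the d10 term carried the interaction: Xcr1 was at 7.04, 7.13, 7.02, 8.65 and 5.46 CPM in untreated and 3.29, 3.34 and 2.42 CPM in treated d10 libraries, an effect of -1.23 (SE 0.20, adjusted p = 0.0325), and had an effect of -0.13 (SE 0.21, adjusted p = 0.708) at d14. Clec9a and Flt3, the growth factor receptor of dendritic cells, had d10 effects of -1.06 and -1.13 and d14 effects of 0.18 and 0.17. This count was 3 when any of untreated d14 replicate 2 and treated d14 replicate 2 was left out.

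Macrophage genes were called higher in 11 of 23 tested members, and genes of complement in 13 of 19. Both lists hold the C1q chains. C1qb, one of the 3 chains of C1q (chromosome 4, 136880129 to 136886187), was at 446, 521, 338, 358 and 264 CPM in untreated and 210.2, 245 and 255 CPM in treated d10 libraries. At d14 it was at 146, 98 and 153 CPM in untreated and 343, 307 and 251 CPM in treated libraries. The treated libraries were all lower at d10 and all higher at d14, with an interaction of 1.89 (SE 0.30, adjusted p = 0.00343). C1qa and C1qc were at 1.72 and 1.8. C3, the central component of complement (chromosome 17, 57203970 to 57228136), was at 1421, 605 and 1256 CPM in untreated and 4352, 3952 and 2712 CPM in treated d14 libraries, and at 1362 to 2393 CPM over all d10 libraries. Its interaction was 2.12 (SE 0.37, adjusted p = 0.00407). Csf1r, the receptor for the macrophage growth factor, was at 1.65 (SE 0.34, adjusted p = 0.00673), and Arg1, an enzyme of macrophages that consumes arginine, was at 1.68 (SE 0.48, adjusted p = 0.0273). Cfb, of the alternative pathway, was at -1.14 (SE 0.39, adjusted p = 0.0592), and Mrc1, a mannose receptor of macrophages, at 0.35 (SE 0.25, adjusted p = 0.364). A single omitted library cost the call of Arg1 in 6 of 14 cases (at most adjusted p = 0.0786, log2 1.56, without untreated d14 replicate 2).

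Resident peritoneal macrophage genes were called higher in 5 of 12 members. Gata6, the factor that sets this identity, was at 19.97, 15.8, 17.5, 12 and 11.3 CPM in untreated and 8.03, 7.74 and 9.46 CPM in treated d10 libraries and had an interaction of 1.83 (SE 0.33, adjusted p = 0.00415). Timd4, a receptor for dying cells, was at 1.51 (SE 0.47, adjusted p = 0.0421). With untreated d10 replicates 1 to 3 only 7 of the list were called, and with replicates 4 and 5 only 2. With single libraries left out, the call was lost for Timd4 in 10 of 14 cases (at most adjusted p = 0.116, log2 1.32, without untreated d14 replicate 2). With a library fewer, the members called were 1 to 3 when any library but untreated d10 replicates 3, 4 and 5 and untreated d14 replicate 1 was left out.

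Neutrophil genes were called higher in 6 of 21 tested members, and in 8 and 2 with those same subsets. Cxcr2, the receptor that brings neutrophils to tissue, was at 18.7, 17.3, 13.6, 3.65 and 4.15 CPM in untreated d10 libraries, where replicates 1 to 3 lay above 4 and 5, and at 3.27, 3.25 and 3.38 CPM in treated ones, and its interaction was 2.27 (SE 0.69, adjusted p = 0.0367). The number called was 2 to 3 when any library but untreated d10 replicates 1, 3, 4 and 5, untreated d14 replicate 3 and treated d14 replicate 3 was left out. Chemokines of the CC and XC families were called higher in 4 of 16 tested members, and matrix metalloproteinases and their inhibitors in 6 of 18. Of all tested genes 10.9% were called higher. With a library left out, the chemokine count was 1 or 2 for any of untreated d10 replicate 2, the 3 treated d10 replicates, untreated d14 replicate 2 and the 3 treated d14 replicates. Inflammatory cytokines were called higher in 4 of 17 tested members, Il12a, Il1a, Il27 and Il6, and in 8 and 1 with the 2 subsets. Il6, an acute phase cytokine, was at 1.59 (SE 0.48, adjusted p = 0.0342) and Il1a, an alarm cytokine, at 1.58 (SE 0.47, adjusted p = 0.0342). Leaving out each library in turn removed the call of Cxcr2 in 11 of 14 cases, Il6 in 9 and Il1a in 9 (Il6 at most adjusted p = 0.0991, log2 1.35, without treated d14 replicate 1). Without 1 library the inflammatory cytokine count was 1 to 2, except for untreated d10 replicates 3, 4 and 5 and both d14 replicates 3. It was 7 without untreated d10 replicate 5.

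Eosinophil, mast cell and type 2 genes were called higher in 12 of 20 members, with a median interaction of 2.45, and in 17 and 8 with untreated d10 replicates 1 to 3 only and 4 and 5 only. The summed level of the list did not separate the groups on either day. It was 186.1 to 334.5 CPM in untreated and 180.8 to 207.7 in treated d10 libraries. At d14 the sum was 128 to 217.6 CPM in untreated and 155.7 to 210.5 in treated libraries. Ccl11, the eosinophil chemokine eotaxin (chromosome 11, 82057823 to 82062955), was at 8.81, 11.6, 5.99, 5.78 and 3.09 CPM in untreated and 3.8, 3.24 and 3.95 CPM in treated d10 libraries. By d14 the level was 1.58, 1.97 and 1.26 CPM in untreated and 5.34, 5.22 and 3.35 CPM in treated libraries, with no overlap. Its interaction was 2.48 (SE 0.50, adjusted p = 0.00628). Ccr3, the receptor for eotaxin, was at 2.9 (SE 0.64, adjusted p = 0.00935), and Siglecf, an eosinophil marker, at 2.19 (SE 0.49, adjusted p = 0.0101). Retnla, a product of type 2 activated macrophages, had the largest interaction of the list, 5.62 (SE 1.61, adjusted p = 0.0277), but its treated d14 libraries held 5.27, 0.22 and 1.03 CPM and the call was lost in 7 of 24 alternatives. Epx, the eosinophil peroxidase, was at or under 3 counts in each untreated d14 library, so no fold is given for it. The mast cell protease genes Cpa3 and Mcpt4 were at 1.2 (SE 0.43, adjusted p = 0.0683) and 0.83 (SE 0.45, adjusted p = 0.22). With a library fewer, the members called were 7 when any of untreated d14 replicate 2 and treated d14 replicate 1 was left out.

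Collagens and matrix genes had a higher treatment effect at d14 in 17 of 25 tested members, with a median interaction of 1.10, and among all 35 tested collagen chain genes 17 were called higher and none lower. The counts for the list were 16 and 13 with untreated d10 replicates 1 to 3 only and 4 and 5 only. Col6a2, a chain of the beaded-filament collagen VI (chromosome 10, 76595762 to 76623630), was at 163, 165, 128, 132 and 121 CPM in untreated and 81.1, 81.3 and 93.3 CPM in treated d10 libraries. On d14 the values were 86.4, 49.99 and 66 CPM in untreated and 216, 196 and 127 CPM in treated libraries. The groups were apart on both days, in opposite order, and the interaction was 2.15 (SE 0.28, adjusted p = 0.00204). The fibrillar collagens Col1a1, Col1a2 and Col3a1 were at 1.42, 1.5 and 1.49. Col6a5 was among the genes with the largest interaction, 4.02 (SE 0.93, adjusted p = 0.0116), with 8.93, 1.56 and 3.45 CPM in untreated and 54.9, 32.9 and 23.7 CPM in treated d14 libraries. The number called was 11 without treated d14 replicate 2.

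Fibroblast and myofibroblast genes were called higher in 9 of 14 members and lower in 1. Clec3b, which encodes the plasminogen-binding tetranectin (chromosome 9, 123150946 to 123157432), was at 3.64, 6.09, 4.36, 9.18 and 2.66 CPM in untreated and 0.611, 0.931 and 0.75 CPM in treated d10 libraries. Values at d14 were 2.56, 0.611 and 4.59 CPM in untreated and 19.5, 13.2 and 6.86 CPM in treated libraries. The order of the groups was reversed between the days, with an interaction of 5.11 (SE 0.84, adjusted p = 0.00355). Pdgfra, the receptor that marks fibroblasts, was at 1.73 (SE 0.26, adjusted p = 0.00273), and Des, an intermediate filament of muscle and pericytes (chromosome 1, 75360329 to 75368579), was at 2.3 (SE 0.31, adjusted p = 0.00222). The gene called lower, Lrrc15, a marker of myofibroblasts, was at -2.15 (SE 0.60, adjusted p = 0.0243) and under 0.3 CPM in every library. Acta2, the smooth muscle actin of myofibroblasts, was at 0.9 (SE 0.20, adjusted p = 0.00978), under the size limit. Of 16 endothelial genes 1 was called higher, Pecam1 (1.05 (SE 0.21, adjusted p = 0.00631)), a share below the 10.9% of all tested genes called higher. This count was 2 and 10 with the 2 subsets of untreated d10 libraries. A single omitted library cost the call of Lrrc15 in 5 of 14 cases and Pecam1 in 5 (Lrrc15 at most adjusted p = 0.0789, log2 -1.81, without treated d10 replicate 2). With a single library left out, the endothelial count was 0 for untreated d10 replicate 2, treated d10 replicate 2 or treated d14 replicate 2. It was also 0 for untreated d14 replicate 2 or 3. It was 2 to 5 for untreated d10 replicate 3, 4 or 5 or untreated d14 replicate 1.

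Genes of mesothelium and mesothelioma split by gene. Of 15 tested members 6 were called higher, Bnc1, Efemp1, Lrrn4, Upk1b, Upk3b and Wt1. Wt1, a transcription factor of the mesothelial lineage (chromosome 2, 105126529 to 105173616), was at 24, 23.8, 24.9, 19.3 and 13.8 CPM in untreated and 11, 10.7 and 11.2 CPM in treated d10 libraries. At d14 it was at 12.9, 7.77 and 14.1 CPM in untreated and 45.4, 31 and 23.8 CPM in treated libraries, and the interaction was 2.48 (SE 0.36, adjusted p = 0.00259). Upk3b, a membrane protein of mesothelium, was at 3.56 (SE 0.80, adjusted p = 0.00977). The genes abundant in these tumors did not share this direction: Msln was at -0.96 (SE 0.35, adjusted p = 0.0749), Krt8 at -0.48 (SE 0.19, adjusted p = 0.101), Krt18 at -0.44 (SE 0.19, adjusted p = 0.117) and Krt19 at -0.79 (SE 0.26, adjusted p = 0.0482). Krt19, an epithelial keratin, was at 725, 633 and 604 CPM in untreated and 395, 341 and 397 CPM in treated d14 libraries. Without treated d14 replicates 1 and 3, 6 genes of this list and 9 of the fibroblast list were called higher. The share of tumor cells in each library was not measured.

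**Figure D4:**
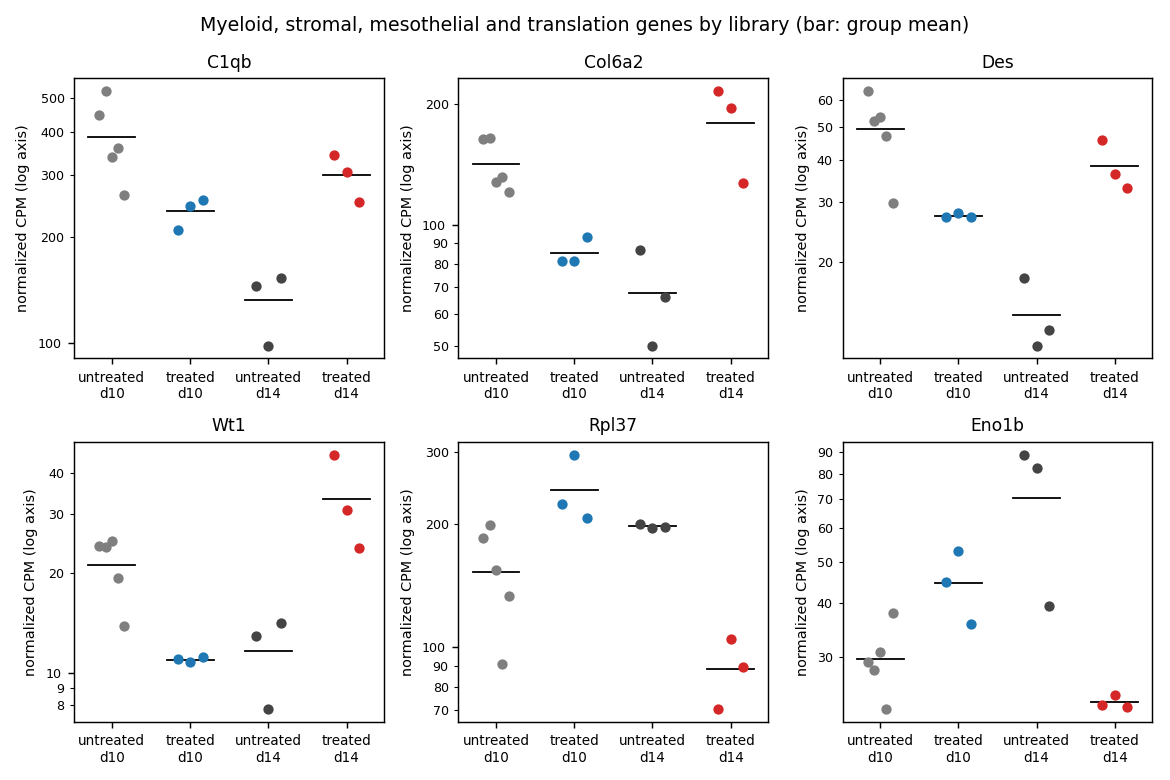
CPM of 6 genes in each library by group (log y axis; x axis, untreated and treated tumors at d10 and d14; points are libraries, bars are group means). C1qb, Col6a2, Des and Wt1 are lower in treated than in untreated tumors at d10 and higher at d14, and Rpl37 is in the opposite order on both days, while the d10 groups of Eno1b overlap.

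The genes with a lower effect at d14 held many ribosomal proteins. Of the 24 listed cytosolic ribosomal protein genes 4 were called lower and all 24 had a negative interaction (1.21% of tested genes called lower). Among all 76 tested genes of this kind, 71 were negative and 18 were called lower, with a median interaction of -0.74, a median d10 effect of 0.31 and a median d14 effect of -0.45. Rpl37, a protein of the large ribosomal subunit (chromosome 15, 5116645 to 5119140), was at 184, 199, 154, 90.7 and 134 CPM in untreated and 223, 295 and 207 CPM in treated d10 libraries. By d14 the level was 199.9, 195 and 196 CPM in untreated and 70.5, 104 and 89.5 CPM in treated libraries. Treated libraries lay above untreated ones at d10 and below them at d14, with an interaction of -1.83 (SE 0.31, adjusted p = 0.00379). Rpl36a and Rps27 were at -2.15 (SE 0.34, adjusted p = 0.00328) and -1.81 (SE 0.41, adjusted p = 0.0101). These genes have many near-identical pseudogenes, so that uniquely mapped reads undercount them by an unknown amount. They are also short: of the 177 genes called lower 77 were among the 2926 shortest of the tested genes (168 to 2395 exonic bases). The same 2926 genes also held 367 of the 1588 genes called higher. The part of length in the result was not tested. The list had 10 called genes with untreated d10 replicates 1 to 3 only and 4 with replicates 4 and 5 only, and none without treated d14 replicates 1 and 3. With a library fewer, the members called were 1 to 2 when any of untreated d10 replicates 1, 2 and 3, treated d10 replicate 2, untreated d14 replicate 1 and treated d14 replicate 1 was left out and 7 without untreated d10 replicate 5.

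Other genes with a lower effect at d14 came from several functions. Eno1b, an enolase gene nearly identical to Eno1 (chromosome 18, 48045335 to 48048412), was at 29.3, 28, 30.9, 22.7 and 38 CPM in untreated and 44.8, 53.1 and 35.9 CPM in treated d10 libraries. On d14 the values were 88.9, 82.7 and 39.5 CPM in untreated and 23.2, 24.5 and 22.9 CPM in treated libraries, all treated below all untreated, and the interaction was -2.16 (SE 0.33, adjusted p = 0.00326). Hspa1b, a stress-induced chaperone with a near-identical neighbour, was at -2.08 (SE 0.42, adjusted p = 0.00635). Nr1h4, the bile acid receptor, was at -2.41 (SE 0.63, adjusted p = 0.0186) and Anxa10, an annexin, at -2.1 (SE 0.44, adjusted p = 0.00756). Lars2, the mitochondrial leucyl-tRNA synthetase, was at -1.91 (SE 0.59, adjusted p = 0.0387) with 484 to 2602 CPM among untreated d10 libraries, and lost its call in 11 of 25 alternatives. Of 24 hypoxia and glycolysis genes 2 were called lower, Car12 and Gapdh (-1.12 and -1.16), and 1 higher, Egln3 (1.18), with a median of -0.42. With single libraries left out, the call was lost for Nr1h4 in 3 of 14 cases, Gapdh in 7 and Egln3 in 5 (Gapdh at most adjusted p = 0.0858, log2 -1.03, without treated d10 replicate 2). Hypoxia and glycolysis genes called lower numbered 1 without treated d10 replicate 2, untreated d14 replicate 1 or 2, or treated d14 replicate 1, 2 or 3. They numbered 5 without untreated d10 replicate 5. Gapdh has many pseudogenes. Of 27 cell cycle genes none was called and 25 had a negative interaction, with a median of -0.39, and Mki67 was at -0.45 (SE 0.28, adjusted p = 0.28). Of 21 respiratory chain genes none was called.

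Adipocyte genes were called higher in 6 of 9 tested members. Adipoq, the fat cell hormone adiponectin, was at 2.02, 1.78, 1.69, 3.28 and 1.55 CPM in untreated and 0.791, 0.635 and 0.591 CPM in treated d10 libraries and had an interaction of 2.86 (SE 0.66, adjusted p = 0.0113). Fabp4, a fatty acid carrier, was at 1.62 (SE 0.32, adjusted p = 0.00592). The summed level of the list was 41.5 to 80.6 CPM in untreated and 28.0 to 30.8 in treated d10 libraries, 22.8 to 30.2 in untreated and 33.7 to 54.0 in treated d14 libraries. Within each day the treated and untreated groups stood in the order of Col6a2 and Wt1. Across days the order differed: the highest sum was in an untreated d10 library, and the highest Col6a2 and Wt1 values were in treated d14 libraries. The part of fat tissue in the other results was not tested. This count was 3 without treated d14 replicate 2. Among called genes with a mean of at least 2 CPM, the largest positive interactions were those of Cela1, Klk1 and Ctrl (6.72, 6.19 and 6.11), enzymes of pancreas and glands. Of 10 tested pancreas acinar genes 2 were called higher, and the 10 interactions ran from 6.11 to 13.79 with a median of 11.47. For 7 of the 10, every library of at least 1 group was at or under 3 counts, so the size of these folds is uncertain. Cela1, an elastase, was at 164, 2.54 and 51.5 CPM in the treated d14 libraries against 0.611 to 2.29 in the other 11. These values follow the 2 libraries with pancreas genes, and without those libraries Cela1 was at 1.86 and Klk1 at 2.15, both no longer called, and Ctrl, Pigr and Noxa1 changed sign, to -0.32, -0.49 and -0.57. With 1 treated d14 library left, whose spread is taken from the other groups, the whole table had 608 genes called higher and 67 lower, and the lists kept 14 called genes for T cell receptor signaling, 12 for collagens and matrix, 7 for macrophages, 3 for eosinophil, mast cell and type 2 genes, 2 for cytotoxic effectors, 1 for MHC class II and none for NK or plasma cells. Of the 8 red blood cell, 6 intestine and 9 female reproductive tract genes tested none was called, and of 5 skeletal muscle and 3 liver genes 1 and 2 were called higher.

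The 12 genes called at d10 were all called in the interaction too, with which they share libraries. None was called at d10 (edgeR) without untreated d10 replicate 1, where 1843 of 14601 tested genes had an unadjusted p under 0.05, or without treated d10 replicate 1, 2 or 3, where 1572 of 14830, 2316 of 14874 and 1585 of 14879 did, and without untreated d10 replicate 5 there were 39 called higher and 166 lower. Lower in treated d10 tumors were Foxp3, Xcr1, Fabp4, Cyp2j9, Slc6a4, Rnase6, Upb1, Kmo, Atp1b2 and Sox12, and higher were Alpk2 and Gm11361. Slc6a4, the serotonin transporter (chromosome 11, 76998603 to 77032340), was at 3.11, 2.75, 4.07, 3.17 and 1.82 CPM in untreated and 0.659, 0.783 and 0.692 CPM in treated d10 libraries. Values at d14 were 1.16, 0.805 and 2.33 CPM in untreated and 7.23, 5.25 and 3.79 CPM in treated libraries. Its order was turned between the days, with effects of -2.07 and 1.91 and an interaction of 3.98 (SE 0.51, adjusted p = 0.00198). Kmo, an enzyme of tryptophan breakdown, was at 4.24, 4.48, 3.27, 6.04 and 2.77 CPM in untreated and 1.75, 1.57 and 1.28 CPM in treated d10 libraries, and its d14 effect was 0.54 (SE 0.25, adjusted p = 0.142). Alpk2, a protein kinase, was at 1.95, 1.87, 1.83, 1.7 and 2.54 CPM in untreated and 5.05, 5.94 and 3.27 CPM in treated d10 libraries, with an interaction of -1.94 (SE 0.34, adjusted p = 0.00404).

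**Figure D5:**
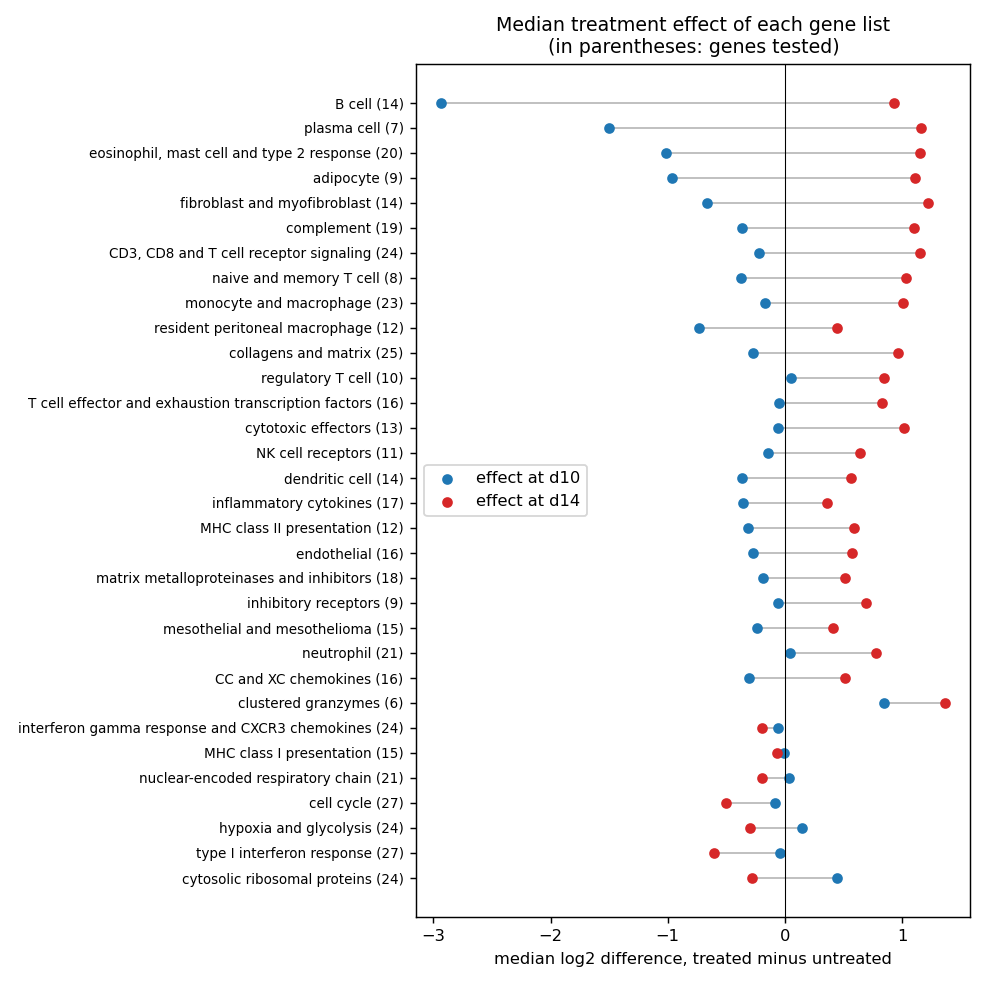
Median treatment effect at d10 and at d14 (x axis, log2 treated over untreated) for 32 gene lists (y axis), one symbol per day. For B cell genes the d10 median of -2.93 is farther from 0 than the d14 median of 0.93, whereas for T cell receptor signaling the d14 median of 1.15 is the farther one.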

How the data were processed

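RNA was extracted from whole peritoneal tumors, each from a separate mouse, and sequenced from KAPA RNA HyperPrep libraries as paired-end reads of 75 bases on a NextSeq500 or 100 on a NovaSeq6000. The platform of each library is not given in the sources used here, so no fit with platform as a term was made. The authors dropped genes with a batch effect between sequencing projects from their own analysis, and no such filter was applied here. The authors aligned reads with TopHat2 2.0.14 to the mouse build GRCm38 (mm10), kept uniquely mapped reads and counted them per gene with HTSeq, and the deposited values are raw read counts per gene (strand setting not given in the sources used here). Groups were taken from the labels. Counts were analysed in R 4.3.3 with edgeR 4.0.16 (filterByExpr, TMM scaling, quasi-likelihood test), 1 mean per group, all genes that passed the filter in the fit and in the Benjamini-Hochberg adjustment. A gene was called past an adjusted p of 0.05 and an absolute log2 difference of 1. Standard errors are the log2 difference over the square root of F. P-values set a difference between groups against the spread between libraries within groups. That spread was not split into a part of the tumors and a technical part. The script was run on counts simulated with a common spread for all genes. These libraries differ from that setting, so the run checks the code and not the calls.

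The 38 gene lists and the members were chosen with earlier results of these data known. Named genes were 13 chosen T cell and interferon genes, the 12 largest interactions in each direction among called genes with a mean of at least 2 CPM and an official symbol, and every called list member; the other genes given are list members that show how their list was made up or were chosen after their values were seen. Of the genes that meet this rule, 1 is not reported here. Lists got no test. Alternatives were DESeq2 1.42.0, no TMM, other count filters, protein coding genes only, all 17 libraries, thinned counts, the 2 subsets of untreated d10 libraries, a replicate block and each replicate left out. The 3 untreated d6 libraries were not used in the main comparisons. Coordinates are those of Gencode vM21 on GRCm38.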

Additional observations from a re-analysis of the deposited data

Results flagged for a closer look

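The treatment effect at d14 and at d10 differed by the interaction test in 1588 genes with a higher effect at d14 and 177 with a lower one. Among the named T cell genes the differences were 1.51 for Gzmb, 1.18 for Cd3e, 1.56 for Cd6, 1.44 for Cd8b1 and 1.35 for Ifng on the log2 scale. Among called genes with a mean of at least 2 CPM, the largest positive differences included 6.72 for Cela1, 6.19 for Klk1, 6.11 for Ctrl, 5.63 for Retnla, 5.11 for Clec3b, 4.38 for Cd79a, 4.17 for Ms4a1, 4.12 for Pou2af1, 4.02 for Col6a5, 3.98 for Slc6a4 and 3.93 for Cd79b. The largest negative ones of these genes were -2.41 for Nr1h4, -2.16 for Eno1b, -2.15 for Rpl36a, -2.14 for Teddm3, -2.10 for Anxa10, -2.08 for Hspa1b, -2.02 for Tgm5, -1.94 for Alpk2, -1.91 for Lars2, -1.83 for Rpl37, -1.81 for Rps27 and -1.78 for Grin1.

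By gene list, the number of members with a higher effect at d14 was 18 for T cell receptor signaling, 6 for cytotoxic effectors, 2 for inhibitory receptors, 4 for regulatory T cells, 7 for T cell transcription factors, 5 for naive and memory T cells, 3 for NK cell receptors, 9 for B cells and 4 for plasma cells. It was 1 for the interferon gamma response, 5 for MHC class II, 6 for dendritic cells, 6 for neutrophils, 11 for macrophages, 5 for resident peritoneal macrophages, 12 for eosinophil, mast cell and type 2 genes and 13 for complement. It was 4 for inflammatory cytokines, 4 for CC and XC chemokines, 17 for collagens and matrix, 6 for matrix metalloproteinases, 9 for fibroblasts, 1 for endothelium and 6 for mesothelium. It was 1 for hypoxia, 6 for adipocytes, 1 for skeletal muscle, 2 for pancreas acinar genes and 2 for liver. Members with a lower effect at d14 numbered 2 for the interferon gamma response, 1 for fibroblasts, 2 for hypoxia and 4 for ribosomal proteins. Over all tested genes 10.9% were called higher and 1.21% lower, and the lists differ in size. The count of 1 higher was out of 24 tested members for the interferon gamma response, 16 for endothelium and 24 for hypoxia. Without untreated d14 replicate 2 the counts for inhibitory receptors and NK cell receptors were 0.

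Untreated d10 replicate 4 lay far from the other 4 untreated d10 libraries in B cell genes, with 50.1 CPM of Cd79a, 35.5 of Ms4a1, 27.5 of Pou2af1 and 31.2 of Cd79b. Chance marks about 1 in 20 groups in this way, and B cell genes are not independent of each other.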

How the results depend on the processing

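No gene called in the interaction changed sign under the other tools, filters and scalings, the 2 subsets of untreated d10 libraries, the block or with a single replicate left out. Genes called at d10 (2 higher, 10 lower) numbered 21 and 162 with DESeq2, 2 and 5 without TMM, 5 and 46 with every gene of at least 1 count, and 6 and 37 with all 17 libraries. After thinning 8 genes were called at d10 in either direction, 5 of them lower. With untreated d10 replicates 1 to 3 only there were 134 higher and 441 lower at d10 and 432 lower in the interaction, and with replicates 4 and 5 only 8 and 5 at d10. With single replicates left out, the interaction had 936 to 1798 genes higher and 96 to 262 lower, d14 had 551 to 1492 and 76 to 153, and d10 had 0 to 39 and 0 to 166. Without treated d14 replicates 1 and 3, an alternative chosen after seeing the data, the interaction had 608 higher and 67 lower, d14 had 457 and 36, d10 had 0 and 0, and 3 called genes changed sign, Ctrl to -0.32, Pigr to -0.49 and Noxa1 to -0.57. The cause of these shifts was not tested. With the replicate number as a block there were 423 lower in the interaction and 134 higher and 420 lower at d10. The numbers share no mouse, and only 3 of 18 same-number correlations of deviations were over 0.1 (-0.272 to 0.129), so the block was not read as pairing. Over 197 named genes and 25 alternatives, 4269 of 4904 values stayed called or stayed not called, and 627 lost the call. Values that were not called could change sign, as Havcr2 did, to -0.05 with untreated d10 replicates 4 and 5 only. With 3 libraries in most groups and 51159050 counts in the smallest, thinning every library to that total left 1452 genes called higher and 157 lower in the interaction.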

Other observations

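The annotation keeps antigen receptor genes apart from protein coding genes. Over the 3946 tested genes of all classes other than protein coding, 209 (5.3%) were called higher and 222 (5.63%) lower in the interaction. Of 141 tested immunoglobulin variable genes 67 were called higher in the interaction (median 3.98), and of 12 immunoglobulin constant genes 8 (median 4.46). Igkc, the kappa light chain constant region, was at 4.36 (SE 0.90, edgeR, adjusted p = 0.00673) and Ighm, that of IgM, at 4.21 (SE 0.96, adjusted p = 0.0105). For both genes the d10 groups overlapped, and all treated d14 libraries lay above all untreated ones. Untreated d10 replicate 4 was the highest of its group, at 928 CPM of Igkc and 778 of Ighm. Ighm was at 1902, 697 and 493.5 CPM in the treated d14 libraries. Of 7 T cell receptor constant genes 5 were called higher (median 1.41), of 42 variable genes 2 (median 1.10), and of 11 joining and 2 diversity genes none. Trac, of the alpha chain, was at 1.27 (SE 0.28, adjusted p = 0.00849) and Trdc, of the delta chain, at 2.36 (SE 0.40, adjusted p = 0.00383). Variable genes of one locus share sequence, so their separate counts are uncertain.

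Of the other classes of genes, 146 of 680 processed pseudogenes were called lower and 5 higher, with a median interaction of -1.03, against 44 higher and 19 lower of 790 long intergenic RNAs. The imprinted RNAs H19 and Meg3 were at 2.34 (SE 0.51, adjusted p = 0.00878) and 2.80 (SE 0.82, adjusted p = 0.03).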
